A study of Mus musculus with 12 samples.

Results

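The regions described here are the accessible sites at genes of cytosolic ribosomal proteins, measured by ATAC-seq in mouse blood stem cells and progenitors with and without Phf6. ATAC-seq uses the Tn5 transposase to insert sequencing adapters into open DNA, and each accessible site has a read count per library. Genes were taken by symbol, protein-coding RefSeq genes of GRCm38 that begin Rpl or Rps, then digits, then at most a single letter a, x, y or l and further digits. The rule found 80 genes, 49 of the large and 31 of the small subunit. A region belonged to them when it lay within 1 kb of either end of such a gene, which gave 114 of the 188262 regions in the table, at 74 genes. The other 6 genes, Rpl10l, Rpl17, Rpl32l, Rpl39l, Rps2 and Rps27l, had no region of the table within that distance. The members farthest from an end were a region of Rps24 at 912 bp with 4.55 CPM and a region of Rpl19 at 920 bp with 5.75 CPM. The nearest regions left out lay at 1093 bp from an end of Rps3 with 1.11 CPM and at 1110 bp from an end of Rpl22 with 49.6 CPM. The Rpl22 region covers an annotated start inside that gene, so its strong promoter region is not among the 114.

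Libraries fell into 4 groups of 3, KO and WT multipotent progenitors (MPP) and KO and WT long-term haematopoietic stem cells (LT-HSC). KO mice were Phf6−/Y with a Cre-ERT2 allele at Rosa26 (Rosa26+/Cre-ERT2), and WT mice carried a floxed Phf6 allele without Cre (Phf6f/Y Rosa26+/+). Cre-ERT2 is a recombinase that tamoxifen activates, and the labels place the sorting of LT-HSC 8 weeks after tamoxifen, with no time given for MPP. All KO libraries carried Cre-ERT2 and WT libraries did not, so an effect of the recombinase and one of Phf6 loss cannot be told apart. Per the labels, nuclei came from 20000 sorted LT-HSC and from 3 individual mice, so KO and WT replicates are taken as separate animals on that wording. The preparation of MPP, the age of the mice, and whether a mouse gave both MPP and LT-HSC, were not stated in the labels.

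Ribosomal protein genes are transcribed in nearly every cell, and their products, with ribosomal RNA, build the small subunit that reads the mRNA and the large subunit that joins amino acids. Their promoters are short, lie in GC-rich open chromatin, and often start transcription within a stretch of pyrimidines (C and T) that becomes the TOP motif, through which translation of these mRNAs responds to growth signals. Blood stem cells are known for a low and tightly held rate of protein synthesis, and defects of single ribosomal proteins cause Diamond-Blackfan anaemia, in which red cell production fails. Phf6 is a nuclear, chromatin-linked zinc finger protein, and its gene is mutated in T-cell leukaemia.

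Promoters of 6 of the 18 genes with a region called higher in KO in both populations are shown first. Each runs from 100 bases before to 20 bases after the RefSeq start (GRCm38), 5′ to 3′ on the gene's own strand. Capitals mark matches on either strand to 5 motifs. The letters CCGGAAG are bound by factors of the ETS family. The letters GGGCGG are bound by SP and KLF factors. The letters AAGATGG are those of the factor YY1. The TATA box was searched as TATAAA, and the E-box of Myc and its relatives as CACGTG. They also mark runs of at least 7 pyrimidines that touch the bases from 5 before to 10 after the start.
Rps3: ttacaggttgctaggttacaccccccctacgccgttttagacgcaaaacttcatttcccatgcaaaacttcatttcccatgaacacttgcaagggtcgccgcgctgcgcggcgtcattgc
Rps15a: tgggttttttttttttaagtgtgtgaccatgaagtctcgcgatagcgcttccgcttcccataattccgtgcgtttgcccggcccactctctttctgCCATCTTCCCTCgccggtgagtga
Rpl7l1: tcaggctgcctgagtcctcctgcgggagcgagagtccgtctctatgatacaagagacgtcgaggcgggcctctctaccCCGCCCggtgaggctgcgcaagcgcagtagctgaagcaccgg
Rps18: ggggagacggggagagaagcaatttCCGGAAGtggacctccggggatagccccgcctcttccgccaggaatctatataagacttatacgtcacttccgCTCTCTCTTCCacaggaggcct
Rps23: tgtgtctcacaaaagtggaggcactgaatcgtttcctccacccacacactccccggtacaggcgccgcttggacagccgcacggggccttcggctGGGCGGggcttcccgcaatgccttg
Rpl35a: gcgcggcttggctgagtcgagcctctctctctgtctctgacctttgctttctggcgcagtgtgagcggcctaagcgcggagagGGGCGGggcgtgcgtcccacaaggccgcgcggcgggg
These are Rps3 at chr7:99483690-99483809, minus strand, Rps15a at chr7:118116128-118116247, minus strand and Rpl7l1 at chr17:46782637-46782756, minus strand. The others are Rps18 at chr17:33955646-33955765, minus strand, Rps23 at chr13:90923022-90923141, plus strand and Rpl35a at chr16:33056353-33056472, plus strand. At all 6 the KO level passed the test as higher in both populations. The stretch of Rps3, which encodes a protein at the mRNA entry of the small subunit, held none of these matches, but a run of 19 bases stood in it as a direct repeat, starting at -58 and again at -39 from the start. In Rps15a a pyrimidine run of 9 bases began at -1 and overlapped the YY1 letters, which lay on the opposite strand. In Rps18 the run had 11 bases and began at -2, with the ETS letters at -75. Rps23, Rpl7l1 and Rpl35a held the GGGCGG letters and no such run.

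For comparison, the next lines give the promoters of the most accessible member, Rpl13a, and of genes linked to blood disease: Rpl10, Rpl5 and Rpl11, mutated in T-cell leukaemia, and Rps19, mutated in Diamond-Blackfan anaemia.
Rpl13a: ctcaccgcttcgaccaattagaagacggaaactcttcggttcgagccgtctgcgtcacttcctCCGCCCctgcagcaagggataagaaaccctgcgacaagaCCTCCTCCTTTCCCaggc
Rpl10: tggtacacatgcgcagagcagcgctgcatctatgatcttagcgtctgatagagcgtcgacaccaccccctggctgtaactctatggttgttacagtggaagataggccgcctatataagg
Rpl5: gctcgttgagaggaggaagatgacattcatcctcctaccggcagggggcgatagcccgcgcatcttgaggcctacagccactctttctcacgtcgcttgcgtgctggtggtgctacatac
Rpl11: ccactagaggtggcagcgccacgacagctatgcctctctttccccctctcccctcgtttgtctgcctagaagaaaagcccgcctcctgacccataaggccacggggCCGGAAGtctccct
Rps19: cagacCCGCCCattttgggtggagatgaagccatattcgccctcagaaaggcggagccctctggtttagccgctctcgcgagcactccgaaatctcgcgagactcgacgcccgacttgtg
They lie at these places: Rpl13a at chr7:45128726-45128845, minus strand, Rpl10 at chrX:74270716-74270835, plus strand, Rpl5 at chr5:107900428-107900547, plus strand, Rpl11 at chr4:136053374-136053493, minus strand and Rps19 at chr7:24884492-24884611, plus strand. The annotated start of Rpl13a stood just before a pyrimidine run of 14 bases, which began at the third base of the transcript.

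Over all ribosomal protein genes, RefSeq promoter windows of 300 bases (250 before to 50 after the start) were at hand for 61 of the 80 genes, in 73 windows. The ETS letters CCGGAAG stood in the windows of 24 of 61 genes (39.3%), against 12.9% of all 17492 protein-coding genes with windows of that length. AAGATGG was found for 16.4% against 7.18% of genes, GGGCGG for 59% against 49.2%, CACGTG for 9.84% against 8.91% and TATAAA for 11.5% against 14.8%. CTTTNC, a form of the TOP start read on both strands that can overlap the pyrimidine run, was found for 73.8% against 58.7%. A pyrimidine run at the start was present in 24 of 73 windows (32.9%), against 7.85% of all 21263 windows. GC content had a median of 57% in the ribosomal protein windows and 56.3% in all windows. These matches describe letters, not bound sites.

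Total counts in regions ran from 22665988 to 48547234 per library, and replicates varied by a biological coefficient of variation of 8.18%. The 114 regions had between 10 and 5071 counts in a library, with a median of 926, and the median count was under 100 at 12 of them. The strongest region at an end of Phf6 (chromosome X, 52912011 to 52912448) had 27.7 to 29.7 CPM in KO MPP against 30.6 to 32.4 CPM in WT MPP, and 26.5 to 28.8 CPM in KO LT-HSC against 25.4 to 27.3 CPM in WT LT-HSC. It does not check the deletion. Defining markers followed the labels for population in part. The MPP list (Flt3, Cd48, Satb1) summed to 79.4 to 85.8 CPM in KO MPP, 95.3 to 100.1 CPM in WT MPP, 46.7 to 52.2 CPM in KO LT-HSC and 54.1 to 56.9 CPM in WT LT-HSC. The LT-HSC marker Slamf1 was lower in WT MPP than in WT LT-HSC (log2 fold change -3.86), while Hlf was slightly higher (0.19). Marker regions of T, B, erythroid, myeloid, NK and endothelial genes were also open, and Cd8a and Ncr1 had no region. The myeloid gene Mpo was higher in WT MPP than in WT LT-HSC (log2 fold change 2.67).

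The ribosomal protein gene regions were among the most open sites of the table. CPM is the count scaled to library size with TMM factors, and here it is averaged over all 12 libraries. Their median was 29.1 CPM (range 0.657 to 93.3), which lay above 96.5% of all tested regions, against medians of 7.07 CPM for all 24490 tested gene-end regions and 1.83 CPM for all 186373 tested regions. Per length the medians were 59.4 CPM per kb for the ribosomal protein regions and 13.4 CPM per kb for gene ends. The regions were short, with a median of 448 bp. Of the 114, 10 (8.77%) were over 600 bp, against 19.2% of gene-end regions.

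**Figure D1:**
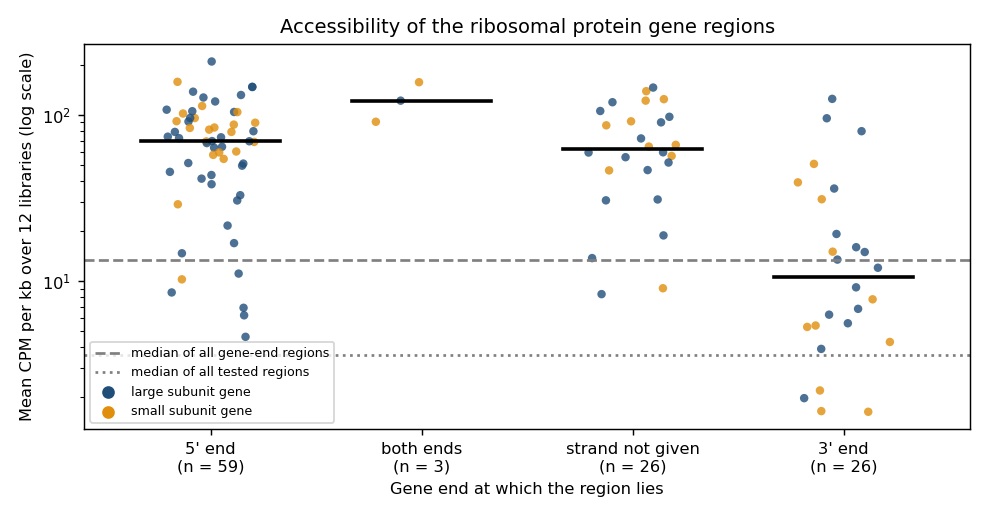
Mean accessibility of each of the 114 regions over 12 libraries, in CPM per kb on a log axis, by the gene end at which it lies, with black bars at the medians and grey lines at the medians of all gene-end and all tested regions. Regions at 5′ ends centre on 69.5 CPM per kb, those at 3′ ends on 10.6 CPM per kb.

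Most of the openness sat at the promoter. Strand is known from the promoter table for 61 genes, and it put 59 regions at a 5′ end, 26 at a 3′ end and 3 at both ends of a short gene, while 26 belong to genes whose strand was not given. Regions at 5′ ends had a median of 69.5 CPM per kb, those at both ends 121.7, those of unknown strand 62 and those at 3′ ends 10.6. An annotated start fell inside 50 regions, and the median distance from its centre was 48 bp. Large subunit regions had a median of 51.6 CPM per kb and small subunit regions 66 CPM per kb. Of the 74 genes, 42 had 1 region, 23 had 2 and 9 had 3, and 31 regions also lay within 1 kb of an end of another protein-coding gene, so they cannot be ascribed to the ribosomal protein gene alone.

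Rpl13a, a large subunit protein that also silences certain mRNAs under interferon, had the most open region (chr7:45128720-45129165, over the annotated start), with 209.3 CPM per kb. It held 111.2, 104.0 and 103.7 CPM in KO MPP, 109.1, 105.7 and 97.5 CPM in WT MPP, 83.5, 83.6 and 81.6 CPM in KO LT-HSC and 77.0, 81.5 and 81.8 CPM in WT LT-HSC. Genotypes overlapped in both populations, and every MPP library stood above every LT-HSC library. Next in CPM came Rps21 with 75.9, Rpl27 with 74.4, Rps29 with 73.1 and Rps19 with 71.1 CPM, which per length are 157, 147, 139 and 158 CPM per kb. Rps21, a small subunit protein, was the flattest of these, at 74.6 to 80.3 CPM in KO MPP, 74.2 to 77.6 CPM in WT MPP, 74.3 to 76.0 CPM in KO LT-HSC and 75.6 to 76.2 CPM in WT LT-HSC. The 5 lowest regions all lay at 3′ ends, of Rps7 (0.657 CPM), Rps3 (0.663 and 1.66 CPM), Rpl6 (0.794 CPM) and Rpl9 (1.57 CPM).

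As a whole the regions took a larger part of the reads in KO libraries and in MPP libraries. Their share of all counts was 0.360%, 0.357% and 0.370% in KO MPP, 0.350%, 0.332% and 0.329% in WT MPP, 0.319%, 0.315% and 0.320% in KO LT-HSC and 0.297%, 0.3002% and 0.297% in WT LT-HSC. No library of a KO group fell to the level of its WT group. Gene-end regions of all genes also took more of the counts, 41.0% to 41.4% in KO MPP, 39.2% to 41.0% in WT MPP, 39.2% to 39.6% in KO LT-HSC and 37.8% to 38.9% in WT LT-HSC, with the genotypes meeting in MPP. Within gene-end counts, the ribosomal protein regions held 0.868% to 0.895% in KO MPP, 0.824% to 0.854% in WT MPP, 0.803% to 0.815% in KO LT-HSC and 0.773% to 0.785% in WT LT-HSC, so the shift was also seen against other gene ends. A score over the members gets no test.

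**Figure D2:**
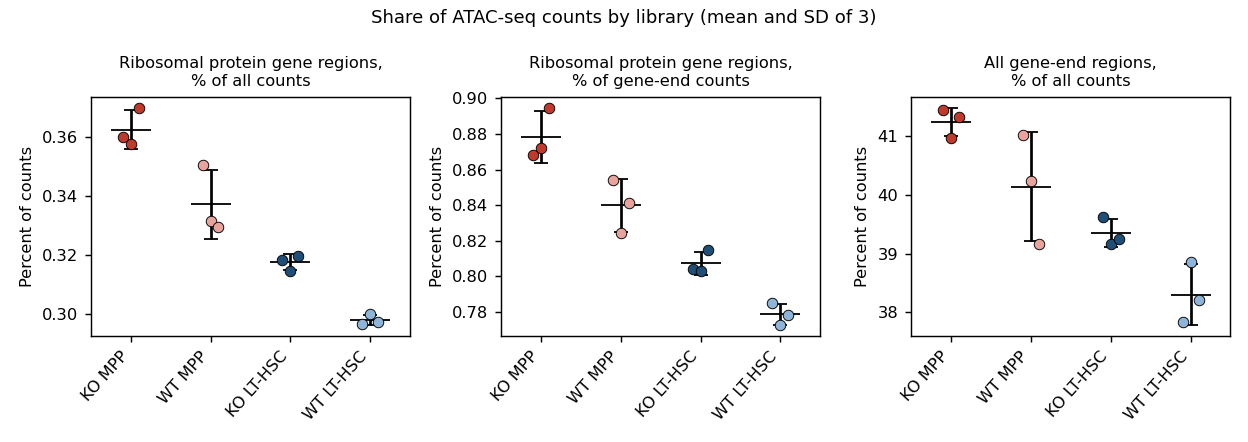
Share of counts by library in the 114 ribosomal protein gene regions, of all counts and of gene-end counts, and in all gene-end regions, with each point a library and bars the mean and SD of 3 (axes do not start at 0). The KO points sit above the WT points of the same population in the first and middle panels, while in the right panel the MPP genotypes meet near 41.0%.

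In LT-HSC the comparison of KO with WT addressed the effect of Phf6 deficiency on open chromatin, as the series title states. At ribosomal protein genes the change ran upward and was small. Of 114 regions, 26 at 26 genes passed the test as higher in KO (22.8%), with called folds of 1.15 to 1.56, and none as lower. Among all tested regions 3.27% passed as higher and 1.47% as lower, and among all gene-end regions 8.2% and 0.968%. The test was edgeR's quasi-likelihood F test on all 12 libraries with Benjamini-Hochberg adjustment over 186373 regions. At an unadjusted p under 0.05, 56 regions were higher and 0 lower, against 11.4% higher and 8.64% lower of all tested regions and 21.6% and 5.79% of gene ends. DESeq2 called 29 higher and 0 lower. The median log2 fold change of the 114 was 0.145, against 0.0609 for all gene ends and -0.0014 for all tested regions. It was above 0 at 104 regions. All 3 KO libraries stood above all 3 WT libraries at 62 of 114 regions (54.4%), against 13.4% of all tested regions and 24.9% of gene ends. For regions of at least 20 CPM, this held at 55.6% of 72, against 44.6% of 6904 gene ends. In a sorted bulk sample, a change per cell and a change in the make-up of the cells cannot be told apart.

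Strongly open gene ends in general passed the test more often. Of 72 ribosomal protein regions of at least 20 CPM, 29.2% passed as higher in KO LT-HSC, with a median log2 fold change of 0.137. Among all 6904 gene-end regions of at least 20 CPM, 17.6% passed, with a median of 0.10. The gene-end share of the counts was higher in KO LT-HSC libraries (above). When this share entered the model, 7.02% of the 114 passed as higher and the median was 0.0896, against 1.42% of gene ends and 0.742% of all tested regions. With scaling factors from gene-end regions alone, chosen after seeing the data, 14.9% passed and the median was 0.0785, against 4.13% of gene ends with a median of -0.01. Marker regions also moved with genotype. The LT-HSC list (Hlf, Mecom, Procr, Slamf1 and Fgd5) summed to 108.0 to 112.5 CPM in KO LT-HSC against 100.4 to 105.8 CPM in WT LT-HSC, and overlapped in MPP. Of its genes only Mecom did not overlap in LT-HSC, with 47.0 to 51.3 CPM in KO LT-HSC against 42.3 to 45.0 CPM in WT LT-HSC. Hlf, Procr, Slamf1 and Fgd5 overlapped, and the mean of Fgd5 was lower in KO LT-HSC (11.2 against 12.4 CPM). The myeloid gene Mpo, which encodes myeloperoxidase, held 13.6 to 16.5 CPM in KO MPP against 11.3 to 12.5 CPM in WT MPP, and 2.90 to 3.21 CPM in KO LT-HSC against 1.55 to 2.18 CPM in WT LT-HSC, with no overlap in either. The whole myeloid list (Elane, Mpo and S100a8) summed to 23.7 to 28.9 CPM in KO MPP against 21.2 to 24.0 CPM in WT MPP, and 9.26 to 9.91 CPM in KO LT-HSC against 7.33 to 9.26 CPM in WT LT-HSC, so that the groups met in both. The region at the erythroid transcription factor gene Klf1 held 42.9 to 46.0 CPM in KO MPP against 34.1 to 40.7 CPM in WT MPP, and 38.6 to 41.5 CPM in KO LT-HSC against 35.7 to 39.9 CPM in WT LT-HSC. The strongest region at Epor, the erythropoietin receptor gene, held 13.0 to 14.5 CPM in KO MPP against 11.8 to 13.9 CPM in WT MPP, and 22.6 to 24.0 CPM in KO LT-HSC against 22.7 to 23.1 CPM in WT LT-HSC. Summed over Klf1 and Epor, the groups did not overlap in MPP, at 56.5 to 60.5 CPM in KO MPP against 45.9 to 54.6 CPM in WT MPP. They met in LT-HSC, at 62.5 to 65.1 CPM in KO LT-HSC against 58.7 to 62.6 CPM in WT LT-HSC. The endothelial list (Cdh5 and Pecam1, both with a region) summed to 31.3 to 35.5 CPM in KO LT-HSC against 26.8 to 30.0 CPM in WT LT-HSC, and overlapped in MPP. The higher sum came from Pecam1, with 26.9 to 31.8 CPM in KO LT-HSC against 22.5 to 24.4 CPM in WT LT-HSC. Cdh5 had a lower mean in KO LT-HSC, with 3.70 to 4.35 CPM against 4.27 to 5.56 CPM in WT LT-HSC. The T cell list (Cd3e and Cd3d, with a region, and Cd8a, without) summed to 32.9 to 34.8 CPM in KO LT-HSC against 31.7 to 32.6 CPM in WT LT-HSC, and overlapped in MPP. Its genes went opposite ways in LT-HSC. Cd3d held 32.5 to 34.1 CPM in KO LT-HSC against 30.9 to 31.6 CPM in WT LT-HSC. Cd3e was lower in KO LT-HSC, at 0.31 to 0.77 CPM against 0.79 to 1.03 CPM in WT LT-HSC. The MPP list was lower in KO in both populations. B cell and NK cell lists overlapped in both. No defining marker with a region was at 0, and the part of these shifts in the result was not tested.

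Rps3 had the lowest p in LT-HSC. Its promoter region (chr7:99483475-99483924) held 49.1, 47.7 and 49.5 CPM in KO LT-HSC against 35.6, 36.9 and 36.0 CPM in WT LT-HSC, a log2 fold change of 0.43 ± 0.06 (SE, edgeR adjusted p = 1.52e-04). The groups lay far apart relative to the spread within each. Rpl32, a large subunit protein, held 28.5, 24.0 and 23.0 CPM in KO LT-HSC against 17.2, 18.8 and 15.1 CPM in WT LT-HSC (0.57 ± 0.09). KO library 1 was the highest, and the groups did not overlap. Rps23, a protein of the decoding centre (chr13:90922738-90923337), held 36.9, 37.1 and 37.5 CPM in KO LT-HSC against 28.6, 28.7 and 26.5 CPM in WT LT-HSC (0.41 ± 0.07). Rps15a, a small subunit protein whose gene is among those of Diamond-Blackfan anaemia (chr7:118115957-118116468), held 29.9, 27.3 and 29.6 CPM in KO LT-HSC against 22.5, 21.9 and 20.5 CPM in WT LT-HSC (0.42 ± 0.07). In both, each KO library exceeded each WT library.

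Rpl7l1 is a paralogue of Rpl7 that acts in the assembly of the large subunit. Its promoter region (chr17:46782480-46782884) held 22.3, 24.4 and 23.9 CPM in KO LT-HSC against 17.4, 18.3 and 15.7 CPM in WT LT-HSC (log2 fold change 0.46 ± 0.08). The stronger region at the other end of that gene, shared with 2310039H08Rik, held 27.3, 27.0 and 27.7 CPM in KO LT-HSC against 23.8, 26.9 and 21.6 CPM in WT LT-HSC and did not pass (0.18 ± 0.08, edgeR adjusted p = 0.198). The 5 other regions with the lowest p were at Rps27a (0.35 ± 0.06), which encodes a fusion of ubiquitin and a small subunit protein, Rpl35a (0.49 ± 0.09), a Diamond-Blackfan anaemia gene, Rps25 (0.38 ± 0.07), needed for initiation on certain viral internal ribosome entry sites, Rpl13 (0.58 ± 0.11) and Rps18 (0.33 ± 0.07). The Rpl13 region lay 609 bp from the gene at its 3′ end, and those of Rps27a, Rpl35a, Rps25 and Rps18 are shared with the ends of Clhc1, Iqcg, Trappc4 and Vps52. With the gene-end share in the model Rpl35a, Rps25 and Rps18 no longer passed (edgeR adjusted p = 0.0638, 0.106 and 0.118). The largest called difference was at a weak region inside Rps24, 912 bp from its 5′ end, with 4.29, 4.81 and 4.50 CPM in KO LT-HSC against 2.44, 2.64 and 3.65 CPM in WT LT-HSC (0.64 ± 0.14, edgeR adjusted p = 0.00713). The groups did not overlap, WT library 3 was the highest of its group, and the call was lost in 2 of 16 alternatives.

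In MPP the same comparison gave 32 of 114 regions higher in KO (28.1%), at 31 genes, with called folds of 1.13 to 1.39, and none lower. Among all tested regions 5.12% passed as higher and 3.59% as lower, and among gene ends 11.4% and 2.4%. At an unadjusted p under 0.05 edgeR gave 49 higher and 0 lower, against 12.7% higher and 11.4% lower of all tested regions and 23.3% and 7.86% of gene ends. DESeq2 called 33 higher and 0 lower. The median log2 fold change was 0.15, above 0 at 99 regions, against 0.0607 for all gene ends. Libraries did not overlap, KO above WT, at 52 regions (45.6%), against 14.4% of all tested regions and 25.9% of gene ends. For regions of at least 20 CPM, this held at 55.6% of 72, against 36.6% of 6904 gene ends. Of regions of at least 20 CPM, 34.7% of 72 passed as higher with a median of 0.15, against 18.4% of 6904 gene ends with a median of 0.0713. The share called higher was 12.3% without KO MPP 3 and 18.4% without KO MPP 2. With the gene-end share of the counts in the model it was 7.02%, against 2.84% of gene ends. With factors from gene-end regions alone it was 15.8%, where 5.57% of gene ends passed as higher and 7.1% as lower.

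Rpl7l1 led in MPP. Its promoter region held 23.2, 24.9 and 26.0 CPM in KO MPP against 19.3, 17.1 and 16.9 CPM in WT MPP, a log2 fold change of 0.48 ± 0.08 (edgeR adjusted p = 2.7e-04). Rps18, a protein of the head of the small subunit (chr17:33955563-33955970), held 53.1, 49.1 and 52.1 CPM in KO MPP against 43.5, 39.0 and 37.2 CPM in WT MPP (0.36 ± 0.06). Rps3 held 47.9, 49.4 and 49.3 CPM in KO MPP against 42.0, 37.6 and 35.3 CPM in WT MPP (0.35 ± 0.06). At all of them WT MPP 1 was the highest WT library and still lay under every KO library. Rpl23a, which lies near the peptide exit of the large subunit, held 25.7, 27.4 and 29.0 CPM in KO MPP against 21.6, 20.7 and 21.1 CPM in WT MPP (0.38 ± 0.07). The others of the 10 lowest p were Rpl39 (0.41 ± 0.07) and Rpl4 (0.41 ± 0.09), both proteins of the exit tunnel, Rps15a (0.38 ± 0.07), Rps23 (0.33 ± 0.06), Rpl29 (0.38 ± 0.08) and Rpl10 (0.29 ± 0.06). The Rpl4 region, at 315 bp from the gene, is shared with Zwilch. Rpl4, Rps23, Rpl29 and Rpl10 did not pass with the gene-end share in the model (edgeR adjusted p = 0.0769, 0.076, 0.153 and 0.0632).

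**Figure D3:**
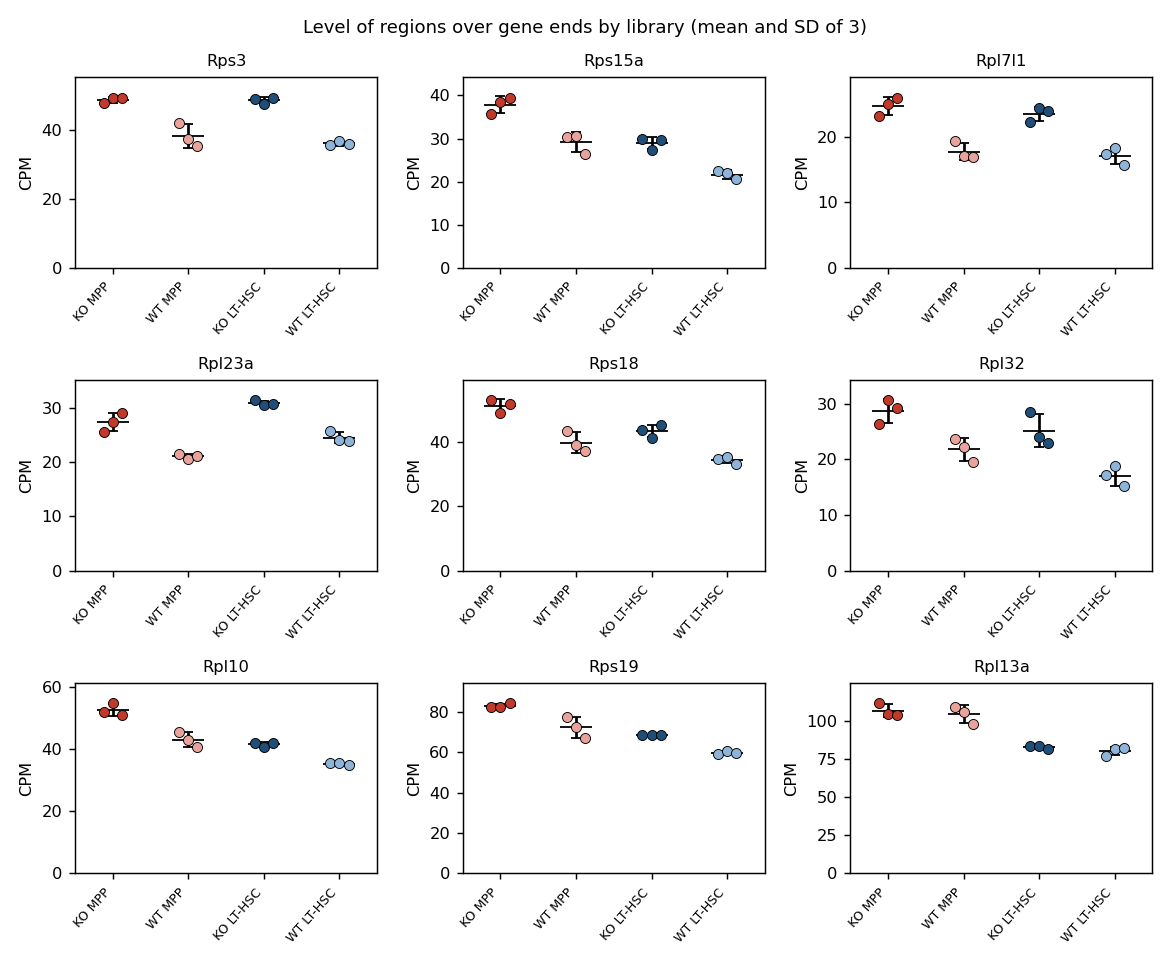
CPM by library at 9 regions over ribosomal protein gene ends, with each point a library, bars the mean and SD of 3, and axes from 0. At Rps3 the KO libraries lie between 47.7 and 49.5 CPM in both populations, above all WT libraries, while at Rpl13a the genotypes overlap and MPP lies above LT-HSC.

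Many regions were called in both populations. Of the regions called higher, 18 of 114 (15.8%) were called in both, against 4.83% of gene ends and 1.48% of all tested regions. They are 69.2% of the LT-HSC calls and 56.2% of the MPP calls, where the same shares over all gene ends were 58.9% and 42.4%, and over gene ends of at least 20 CPM 60.9% and 58.2%. Restricted to at least 20 CPM, 16 of 72 ribosomal protein regions (22.2%) were called in both, against 10.7% of gene ends. Of all 114, 40 regions at 39 genes were called in either population. Log2 fold changes were above 0 in both populations at 92 regions (80.7%) and below 0 in both at 3, against 48.2% above 0 in both among gene ends and 65% among those of at least 20 CPM. All KO libraries stood above all WT libraries in both populations at 40 regions (35.1%), against 14% of gene ends and 5.45% of all tested regions. Restricted to at least 20 CPM, the shares were 43.1% of ribosomal protein regions and 26.4% of gene ends. Across the 114 regions the fold changes of LT-HSC and MPP had a Pearson r of 0.67, and across all gene-end regions 0.53. These are descriptions across regions that share libraries. An exception, named after its values were seen, was the promoter region of Rps3a1, a small subunit protein, at chr3:86142449-86142901. It held 56.1, 54.4 and 56.1 CPM in KO MPP against 60.1, 60.8 and 54.8 CPM in WT MPP, and 43.8, 43.9 and 43.0 CPM in KO LT-HSC against 44.7, 46.9 and 49.9 CPM in WT LT-HSC. The groups overlapped in MPP and lay side by side in LT-HSC, KO below WT, and the test was passed in neither (log2 fold change -0.08 ± 0.06 in MPP and -0.11 ± 0.06 in LT-HSC, edgeR adjusted p = 0.441 and 0.285). It was the 1 region called lower under an alternative, with the loess offset in LT-HSC (-0.22, adjusted p = 0.0171 by edgeR) and with factors from gene-end regions alone in MPP (-0.17, adjusted p = 0.0439 by edgeR).

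In 16 alternatives for each comparison, 4 regions kept their call in both populations under each of them, at Rps3, Rps15a, Rpl7l1 and Rpl23a. Leaving aside the gene-end covariate, 9 did, adding Rpl29, Rpl32, Rps18, Rps23 and Rps25.

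**Figure D4:**
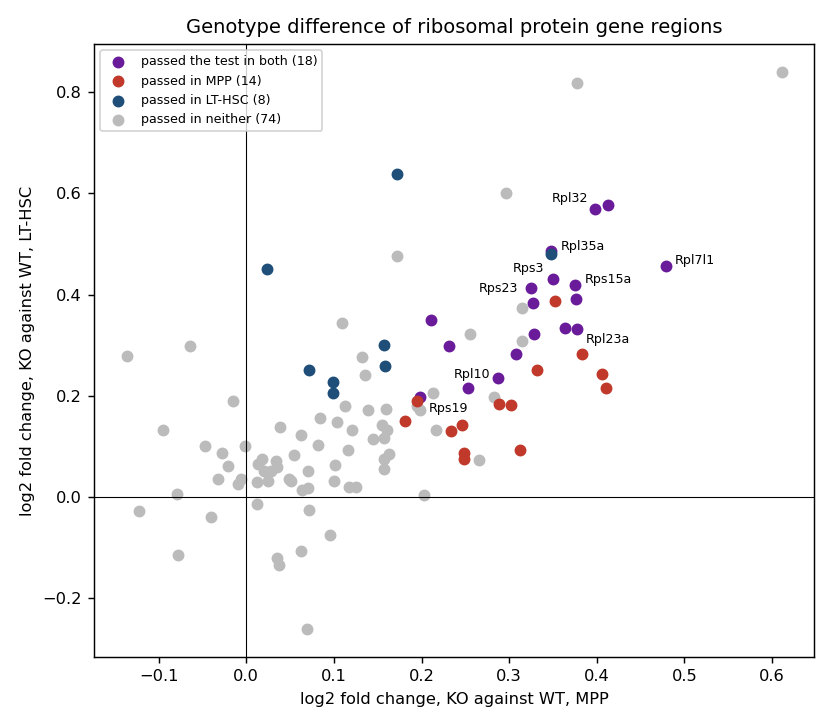
Log2 fold change of KO over WT at each of 114 regions, in MPP on the x axis and LT-HSC on the y axis, coloured by the populations in which the region passed the test. Of the 114 points, 92 lie above 0 on both axes, among them all 18 regions called in both populations, such as Rpl7l1, Rpl32 and Rps15a.

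No ribosomal protein region passed the test for a response that differs between populations. The interaction, KO against WT in MPP minus KO against WT in LT-HSC, passed at 0 of 114 regions by edgeR and by DESeq2, and 15 of 186373 regions passed in all (0.00805%). At an unadjusted p under 0.05, 6 of the 114 passed (5 by DESeq2), all with the lower log2 fold change in MPP, against 3.88% of all tested regions and 3.68% of gene ends that passed in that direction. Rpl22, deleted in some T-cell leukaemias, had the lowest p. That p belongs to a weak region inside the gene, 711 bp from its 3′ end, and not to its promoter, which lies outside the 1 kb windows. The weak region held 9.75, 9.45 and 9.68 CPM in KO MPP against 10.8, 10.01 and 10.9 CPM in WT MPP, and 7.82, 8.24 and 8.42 CPM in KO LT-HSC against 5.56, 6.41 and 8.16 CPM in WT LT-HSC (difference of log2 fold changes -0.42 ± 0.15, edgeR adjusted p = 0.532). Next came a 3′ region of Rpl26 (-0.43 ± 0.16) and the weak region inside Rps24 (-0.47 ± 0.19).

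Genes of both subunits were among those that rose. Among all gene ends 8.2% passed as higher in KO LT-HSC and 11.4% in KO MPP, and among all tested regions 3.27% and 5.12%. Among gene ends of at least 20 CPM, 17.6% and 18.4% passed. At 5′ ends 15 of 59 regions passed as higher in KO LT-HSC (25.4%) and 21 of 59 in KO MPP (35.6%). At 3′ ends 3 of 26 (11.5%) and 1 of 26 (3.85%) passed, and the MPP share lay below those of all gene ends and all tested regions. The 3′ regions are weaker, and their median log2 fold change was 0.161 in LT-HSC and 0.091 in MPP, against 0.141 and 0.158 at 5′ ends, and the difference between ends was not tested. Of large subunit regions 15 of 71 passed in LT-HSC (21.1%) and 21 in MPP (29.6%), and of small subunit regions 11 of 43 passed in each (25.6%). Genes with the CCGGAAG letters had 5 of 21 strongest regions called higher in KO LT-HSC and 6 of 21 in KO MPP. Genes with windows that lack them had 8 and 11 of 35. The difference between genes with and without these letters was not tested.

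Among genes linked to blood disease, Rps15a and Rpl35a (above) passed in both populations, and so did Rps19 and Rpl10. Rps19 (chr7:24884240-24884689) held 82.7, 82.7 and 84.4 CPM in KO MPP against 77.8, 72.5 and 67.2 CPM in WT MPP, and 68.5, 68.9 and 68.5 CPM in KO LT-HSC against 59.1, 60.6 and 59.9 CPM in WT LT-HSC. It did not overlap in either population and passed in both (log2 fold change 0.20 ± 0.05 in MPP and 0.20 ± 0.06 in LT-HSC, edgeR adjusted p = 0.0208 and 0.0356). The calls were lost in 7 of 16 alternatives in MPP and 11 of 16 in LT-HSC. Rpl10, needed for the joining of the subunits (chrX:74270213-74270892), held 52.1, 54.8 and 50.9 CPM in KO MPP against 45.5, 42.8 and 40.8 CPM in WT MPP, and 42.1, 40.6 and 42.1 CPM in KO LT-HSC against 35.5, 35.7 and 34.8 CPM in WT LT-HSC. It passed in both (0.29 ± 0.06 and 0.24 ± 0.06), and 9 of 16 alternatives ended the LT-HSC call.

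Rpl11 and Rpl5, which with 5S RNA bind the p53 regulator Mdm2 when assembly fails, were less clear. Rpl11 held 46.2, 43.3 and 44.6 CPM in KO MPP against 42.2, 42.9 and 40.0 CPM in WT MPP (0.10 ± 0.06, edgeR adjusted p = 0.306), and 40.9, 40.0 and 39.7 CPM in KO LT-HSC against 34.4, 35.4 and 35.0 CPM in WT LT-HSC (0.20 ± 0.06, adjusted p = 0.0416). The LT-HSC call was lost in 12 of 16 alternatives. Rpl5 had log2 fold changes of 0.16 ± 0.06 in MPP and 0.13 ± 0.07 in LT-HSC and passed in neither. Rps14, whose loss underlies the anaemia of del(5q) disease, passed in MPP (0.18 ± 0.06, adjusted p = 0.046, lost in 12 of 16 alternatives) and not in LT-HSC (0.15 ± 0.06, adjusted p = 0.137). Among paralogues, Rpl22l1, a relative of Rpl22, passed in LT-HSC (0.23 ± 0.06, adjusted p = 0.0196, lost in 7 of 16) and not in MPP (0.10 ± 0.06). The region at the 3′ end of the muscle paralogue Rpl3l, shared with Msrb1, had 0.08 ± 0.06 in MPP and 0.10 ± 0.07 in LT-HSC.

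Mitochondrial ribosomal protein genes and other genes of translation rose at shares near those of the 114 regions. Of the 114, 28.1% passed as higher in KO MPP and 22.8% in KO LT-HSC, with medians of 0.15 and 0.145. Of 104 regions at mitochondrial ribosomal protein genes, 27 passed as higher in KO MPP (26%) and 24 in KO LT-HSC (23.1%), with median log2 fold changes of 0.141 and 0.129. Of 35 regions at 20 genes of translation factors and other TOP mRNAs, such as Eef1a1 and Npm1, 12 passed as higher in KO MPP (34.3%) and 8 in KO LT-HSC (22.9%), with medians of 0.179 and 0.197. None of these regions passed as lower. At 6 genes of cytosolic ribosomal proteins whose symbols the rule leaves out (Rplp0, Rplp1, Rplp2, Rpsa, Fau, Rpl36al), 1 of 7 regions passed in each population, at Rplp2, and the medians were 0.104 in MPP and -0.0013 in LT-HSC. Among all gene ends 11.4% passed as higher in KO MPP and 8.2% in KO LT-HSC, and among those of at least 20 CPM 18.4% and 17.6%. The differences between these lists and other gene ends were not tested.

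**Figure D5:**
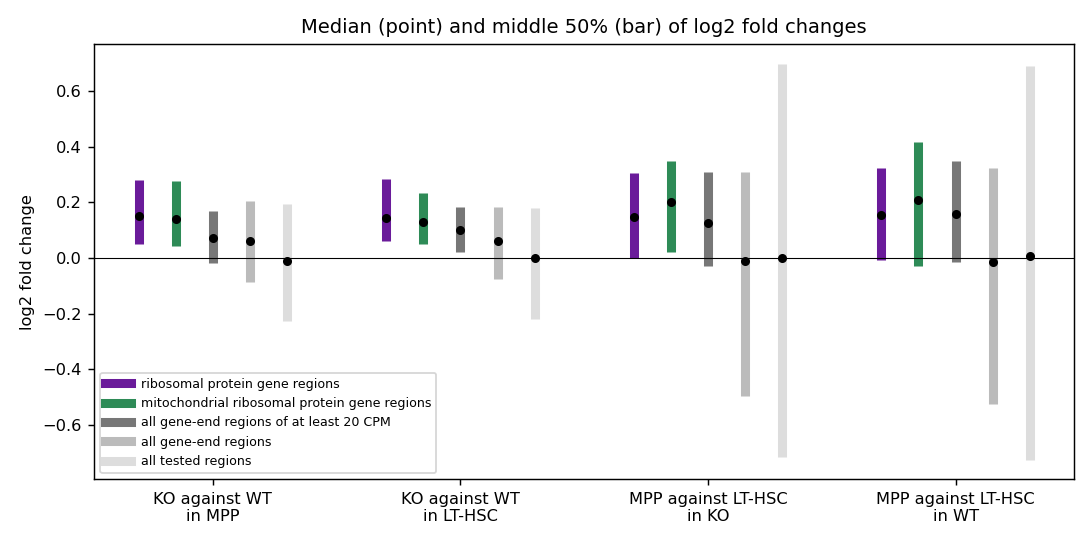
Median (point) and middle 50% (bar) of log2 fold changes in the 4 comparisons, for ribosomal protein gene regions, mitochondrial ribosomal protein gene regions, gene-end regions of at least 20 CPM, all gene-end regions and all tested regions. In KO against WT both kinds of ribosomal protein gene centre between 0.129 and 0.15, above all gene ends at about 0.0609. Gene ends of at least 20 CPM lie nearer, at 0.10 in LT-HSC and 0.0713 in MPP.

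Between populations, more ribosomal protein regions were higher in MPP than were lower. In WT, 55 of 114 passed as higher in MPP (48.2%) and 8 as lower, with a median log2 fold change of 0.155. In KO, 51 passed as higher (44.7%) and 8 as lower, with a median of 0.147. Among all tested regions 34.6% passed as higher and 35.2% as lower in WT, and 33.3% and 34.4% in KO. Among all gene ends 32.6% passed as higher and 35.5% as lower in WT, and 31.4% and 33.6% in KO. Among gene ends of at least 20 CPM, 52.4% passed as higher in WT MPP and 47.3% in KO MPP, with medians of 0.157 and 0.127. As lower, 13.1% and 13% of these passed. Ribosomal protein regions of that level gave 56.9% higher and 2.78% lower in WT, and 54.2% and 1.39% in KO. With the share of gene-end counts in the model, 22.8% of the ribosomal protein regions passed as higher in WT and 19.3% in KO, against 16.9% and 15.3% of gene ends and 22.9% and 22.6% of all tested regions.

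Rpl18, a large subunit protein, had the largest gain, at a weak region inside the gene 619 bp from its 5′ end. That region held 9.08, 7.83 and 8.89 CPM in KO MPP and 7.07, 6.88 and 6.12 CPM in WT MPP, against 1.79, 2.23 and 2.23 CPM in KO LT-HSC and 1.72, 1.60 and 1.39 CPM in WT LT-HSC. The log2 fold change of MPP over LT-HSC was 2.06 ± 0.13 in KO and 2.09 ± 0.14 in WT, with no overlap. Regions over gene ends with the lowest p in WT were those of Rps12 (0.95 ± 0.08), Rpl21 (0.76 ± 0.06) and Rps23 (0.68 ± 0.06), and a region 56 bp from the 3′ end of Rps9 rose by 0.95 ± 0.08. Rps12, a protein of the small subunit, held 56.0, 49.2 and 54.9 CPM in KO MPP and 53.6, 52.5 and 44.6 CPM in WT MPP, against 30.9, 26.7 and 29.3 CPM in KO LT-HSC and 25.7, 28.5 and 23.9 CPM in WT LT-HSC. In KO, Rpl3, of the peptidyl transferase centre, was also among the 5 lowest p (0.64 ± 0.06).

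Of the 8 regions lower in MPP, 5 lay at a 3′ end in the KO comparison and 4 in the WT comparison. They included regions of Rpl9, shared with Klb (-1.49 ± 0.22 in KO and -1.18 ± 0.23 in WT), and Rps27, shared with Nup210l (-0.94 ± 0.15 and -0.81 ± 0.15). A region of Rpl36 shared with Lonp1 was lower in both genotypes (-0.39 ± 0.11 in KO and -0.37 ± 0.11 in WT). Stronger regions among them were Rpl23a, with 25.7 to 29.0 CPM in KO MPP against 30.6 to 31.4 CPM in KO LT-HSC (-0.17 ± 0.07) and 20.7 to 21.6 CPM in WT MPP against 23.9 to 25.8 CPM in WT LT-HSC (-0.22 ± 0.07), and Rpl12 in WT (-0.19 ± 0.07). The Rpl12 call, at a region shared with Lrsam1, was lost without WT LT-HSC 2 (adjusted p = 0.0944 by edgeR). With the gene-end share in the model, the WT calls of Rpl9, Rps27 and Rpl23a were lost (edgeR adjusted p = 0.0964, 0.0576 and 0.149).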

How the data were processed

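A union table of regions holds deposited raw counts, which the authors left unscaled. GRCm38 is the build, and featureCounts, MACS2 2.1.1, Bowtie2, cutadapt and DESeq2 1.22.1 the tools, per the submitters' processing notes. Their order, settings and filters are unknown here. Libraries were made with Nextera Tn5 and read as pairs of 75 nt, per the labels. Whether reads were shifted for Tn5, and how duplicates were treated, is not given either. Regions were placed by RefSeq gene ends (GRCm38.p6), and strand and promoter sequences came from RefSeq windows. The genes, lists and tests were chosen with earlier results of these data known.

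The fit, with edgeR 4.0.16 under R 4.3.3, took all 12 libraries (1 mean per group, TMM, filterByExpr, which kept 186373 regions and left out 1889). The 2-sided quasi-likelihood F test gave p-values, adjusted by Benjamini-Hochberg over all tested regions with a threshold of 0.05, and SE is the log2 fold change divided by the root of F. An exact permutation test of 3 against 3 cannot go below 0.1, so none was used. Named regions were the 10 called regions per direction with the lowest p per genotype comparison, 5 per direction per population comparison, the 3 lowest p of the interaction, the 5 highest and 5 lowest levels, and the strongest regions of genes linked to blood disease and of paralogues. Other named values were chosen after they were seen. KO and WT libraries of the same number did not deviate together (r from -0.037 to 0.033). Some items of the marker and comparison lists are not reported here.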

Additional observations from a re-analysis of the deposited data

How the results depend on the processing

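The direction of each median over the 114 regions was kept under every alternative run. With the gene-end share in the model, the percentage called higher in KO was 7.02% in MPP and 7.02% in LT-HSC, with medians of 0.107 and 0.0896 on the log2 scale. For MPP over LT-HSC in that model, 19.3% in KO and 22.8% in WT were higher, 3.51% and 2.63% lower, and the medians were 0.0547 and 0.0695. With TMM factors from gene-end regions alone, chosen after seeing the data, 15.8% in MPP and 14.9% in LT-HSC were higher in KO, 0.877% in MPP lower, and the medians were 0.062 and 0.0785. With the loess offset, 14.0% were higher and 0.877% lower in KO LT-HSC. Its medians were 0.0977 in MPP and 0.0739 in LT-HSC for KO over WT, and 0.095 in KO and 0.0643 in WT for MPP over LT-HSC, where 14.0% and 13.2% were lower. Total-count scaling gave a median of 0.0875 in LT-HSC, and the filter at 1 CPM gave 0.109 in LT-HSC for KO over WT and 0.193 in KO for MPP over LT-HSC. At an adjusted p under 0.01, 14.9% in MPP and 14.0% in LT-HSC were higher in KO, and in WT 4.39% were lower in MPP than in LT-HSC. The share lower in MPP than in LT-HSC, in KO and in WT, was 0% and 1.61% at the 62 regions at a 5′ end or at both ends. It was 1.35% and 2.7% for the strongest region of each gene. In KO, 4.44% of regions within 500 bp were lower in MPP than in LT-HSC. The strongest regions had a median of 0.188 for MPP over LT-HSC in KO. In these cases the cause was not tested.

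Leaving out a library, the share higher in KO ran from 12.3% to 28.9% in MPP and from 15.8% to 19.3% in LT-HSC. The medians ran from 0.125 to 0.181 and from 0.132 to 0.184, and for MPP over LT-HSC from 0.115 to 0.156 in KO and from 0.136 to 0.184 in WT. The Rpl3l region in MPP turned to -0.01 with factors from gene-end regions alone (-0.0064). The interaction called 0 of the 114 regions under each alternative, DESeq2 included. With the replicate number as a block, 28.1% in MPP and 22.8% in LT-HSC were higher in KO, and 50.9% in KO and 51.8% in WT were higher in MPP, and over all tested regions the interaction called 91 higher and 142 lower. Same-numbered MPP and LT-HSC libraries had r of 0.054 to 0.114, and each library correlated best with its own number. That is a hint from the data, and whether they come from the same mouse was not stated. At 12 regions the median count was under 100, which limits their precision.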
